A study of Homo sapiens with 8 samples.

Results

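ANKRD17 was examined through the RNA regions that RIP-seq listed over it in IHCF cells, fibroblasts of the human heart that were immortalized in culture. A region belonged to ANKRD17 if its table placed it inside an annotated ANKRD17 transcript, across either end of one, or over all of one. By this rule ANKRD17 held 26 of the 3210 listed regions. It held 8 of 1986 in the list from cells with a lentiviral vector for full-length eIF4G2 (the overexpression list). In the list from cells with a scramble control vector (the control list) it held 18 of 1224. The 2 totals are unlike bases for a share. On chromosome 4, where ANKRD17 lies, the overexpression list had 491 regions and the control list 1185. Both groups of cells were lysed and precipitated with an antibody against eIF4G2, an initiation factor of translation that resembles eIF4G1 but cannot bind the cap-binding protein. The labels name 2 eIF4G2-bound and 2 total RNA libraries per condition, 8 in all, and the deposited data are 1 list of regions per condition.

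Only the names of the tables tell which condition each list is from. Those names also carry MOV10, an RNA helicase that is absent from the sample labels. The lists hold positions on GRCh38 and overlapping Ensembl transcripts, with no strand, read count or score, and nothing per replicate. The depth behind a region is unknown, no difference between the lists can be set against a replicate error, and more ANKRD17 RNA, more eIF4G2-bound RNA and more cells cannot be told apart. ANKRD17 was chosen by its listed regions, present in both lists and equal in 1 region, so its counts are given as a description, with no test.

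ANKRD17 encodes a large protein with arrays of ankyrin repeats, which bind other proteins, and a KH domain, a fold that binds RNA. In human cells it has been described as a partner of cyclin E and its kinase at the start of DNA replication and as a helper of antiviral RNA sensing. Its Drosophila relative, Mask, works with Yorkie, the fly counterpart of the Hippo pathway effector YAP, which in fibroblasts is known for responses to matrix stiffness. eIF4G2 recruits ribosomes to a subset of mRNAs in ways that depend less on the cap-binding complex.

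The tables give 10 ANKRD17 transcripts (ENSG00000132466), all on the minus strand of chromosome 4. The longest, ENST00000358602, spans chr4:73073376-73258798, 185423 bp, and served as the scale: positions below run from its 5′ end. Exons were not used here, so a region is placed by distance and by transcript ends, not as exonic or intronic. RefSeq lists start sites of ANKRD17 at 73258798, where the longest transcript begins, and at 73223057, close to the 5′ end of the shorter transcript ENST00000509867 (73223114). The bases just upstream of both are shown because a control region covered the far end of the outer sequence, 203 bp upstream of that start, while no region of either list lay near the inner one. They are read 5′ to 3′ on the minus strand from RefSeq's GRCh38.p14 windows, at chr4:73258799-73259048 and chr4:73223115-73223307, and capitals mark bases under a control region.

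Outer start: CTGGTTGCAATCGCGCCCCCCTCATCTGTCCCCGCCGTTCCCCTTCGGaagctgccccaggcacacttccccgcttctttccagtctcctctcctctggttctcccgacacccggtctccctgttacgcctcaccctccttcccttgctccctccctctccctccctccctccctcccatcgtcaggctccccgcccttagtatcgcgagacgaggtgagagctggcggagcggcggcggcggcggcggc
Inner start: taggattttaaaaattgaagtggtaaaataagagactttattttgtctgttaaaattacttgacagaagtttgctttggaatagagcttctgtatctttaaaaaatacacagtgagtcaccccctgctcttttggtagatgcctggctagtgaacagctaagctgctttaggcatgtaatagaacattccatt

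The outer sequence is rich in G and C (68.0% over 250 bases, against a median of 58.0% over 35116 RefSeq promoters) and holds 21 CpG dinucleotides, and the inner one is poor in both (34.7% over its 193 bases, with 0 CpG). A control region of 600 bp, chr4:73259001-73259600, lay over the 48 capital bases. The tables assign it to ENSG00000250220, an unnamed transcript that starts at 73259209 on the plus strand, so it is not counted among the 18. In the overexpression list the region nearest to the outer sequence lay 2202 bp away. The inner sequence lay 37943 bp from the nearest overexpression region and 34933 bp from the nearest control region. The outer RefSeq window of 300 bases contained, on either strand, GGGCGG, a GC box found in 45.0% of all such windows, and TCGCGAGA, found in 1.15%. TATAAA was in neither ANKRD17 window and in 11.5% of all windows. These matches describe the sequence and say nothing about which factors bind there.

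Along the gene, both lists placed nearly all of their regions in the 3′ part. All 8 overexpression regions and 17 of the 18 control regions had their midpoints beyond 60% of the length from the 5′ end, with medians at 73.1% for the overexpression regions and 74.5% for the control regions. From 73146801 to 73258240, a stretch of 111440 bp or 60.1% of the gene, neither list had a region. The exception at the 5′ end was a control region of 215 bp at chr4:73258241-73258455, which began 343 bp inside the longest transcript and crossed the 5′ end of ENST00000558247 (73258322). No overexpression region overlapped it. The nearest one on ANKRD17 was 111440 bp away, and the nearest on any gene, chr4:73261251-73262325 on the unnamed divergent transcript, was 2795 bp away.

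**Figure D1:**
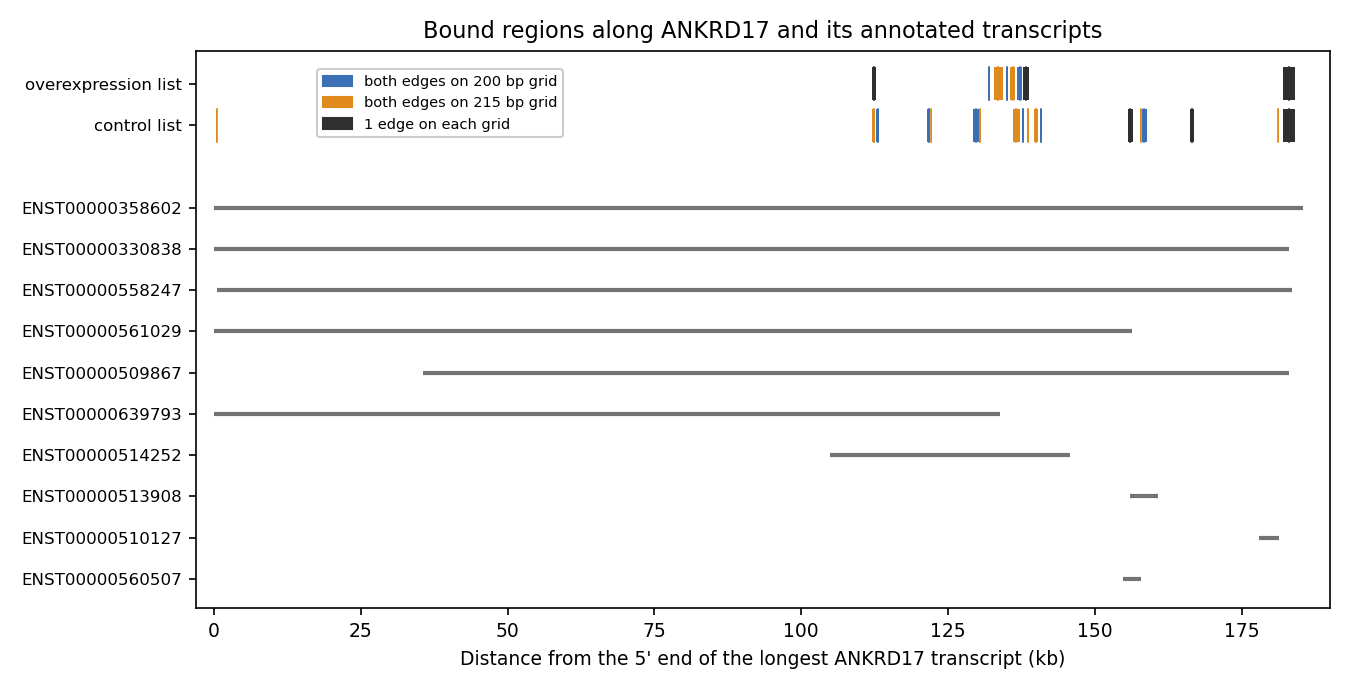
Each block in the upper rows is a listed region, placed by its distance in kb from the 5′ end of the longest ANKRD17 transcript, and grey lines below are the 10 annotated transcripts. The 8 overexpression regions fall into 3 groups between 112 kb and the 3′ end, and the 18 control regions also lie between and beyond these groups, with 1 near the 5′ end. Colours give the bin grid on which the edges of a region fall.

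The largest shared feature was at the 3′ end. The overexpression list and the control list each had a region at chr4:73074631-73076800, 2170 bp wide, with both ends equal to the base. It was the widest ANKRD17 region in both lists, with 27.4% of the overexpression width and 18.9% of the control width on the gene. Its 3′ edge lay 1255 bp from the 3′ end of the longest transcript and covered the annotated 3′ ends of ENST00000558247 (73075238), ENST00000330838 and ENST00000509867 (both 73075686). The control list had a further region of 215 bp just upstream, chr4:73077426-73077640, inside the short transcript ENST00000510127, 625 bp from the shared region and with no overexpression counterpart.

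The overexpression list held its densest group farther upstream. Regions of 1005, 800, 860, 400, 1505 and 400 bp followed each other from 73119996 to 73127000, with gaps of 200 to 585 bp, and together made up 4970 bp or 62.7% of the overexpression width on ANKRD17. They covered 70.9% of that 7005 bp window, which was chosen after the values were seen. In the same window the control list had 3 regions that covered 2120 bp, or 30.3%. The window runs between edges of overexpression regions, so this contrast favours that list by construction. Joining regions of either list up to 5000 bp apart gave a wider cluster, chr4:73117801-73129600. There the overexpression list had 6 regions of 4970 bp and the control list 7 regions of 4595 bp. The window is 3.78% of the gene and lies 132 to 139 kb from its 5′ end.

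Within this window the lists met at its 3′ side and parted at its 5′ side. The overexpression region chr4:73119996-73121000 started on the same base as the control region chr4:73119996-73120425 and contained it. It also shared 200 bp with the control region chr4:73120801-73121200, which ended on the base before the next overexpression region, chr4:73121201-73122000. The control region chr4:73121501-73122790 bridged that region and chr4:73122361-73123220 of the overexpression list, sharing 500 and 430 bp with them.

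The remaining overexpression regions of the window had no overlap with the control list. They lay at chr4:73123601-73124000, chr4:73124511-73126015 and chr4:73126601-73127000, at distances of 810, 1720 and 1165 bp from the nearest control region. The middle one covered the 3′ end of ENST00000639793 (73125030). On either side of the window the control list went on where the overexpression list had nothing: chr4:73128166-73128595 and chr4:73128601-73129600 on the 5′ side, 5 bp apart, and chr4:73117801-73118200 and chr4:73118491-73119135 on the 3′ side.

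Both lists also met about 112 kb from the 5′ end. The overexpression region chr4:73146011-73146800 (790 bp) contained the control region chr4:73146226-73146655 (430 bp). A second control region, chr4:73145601-73146000, stopped 10 bp short of the overexpression region. No end was shared here.

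**Figure D2:**
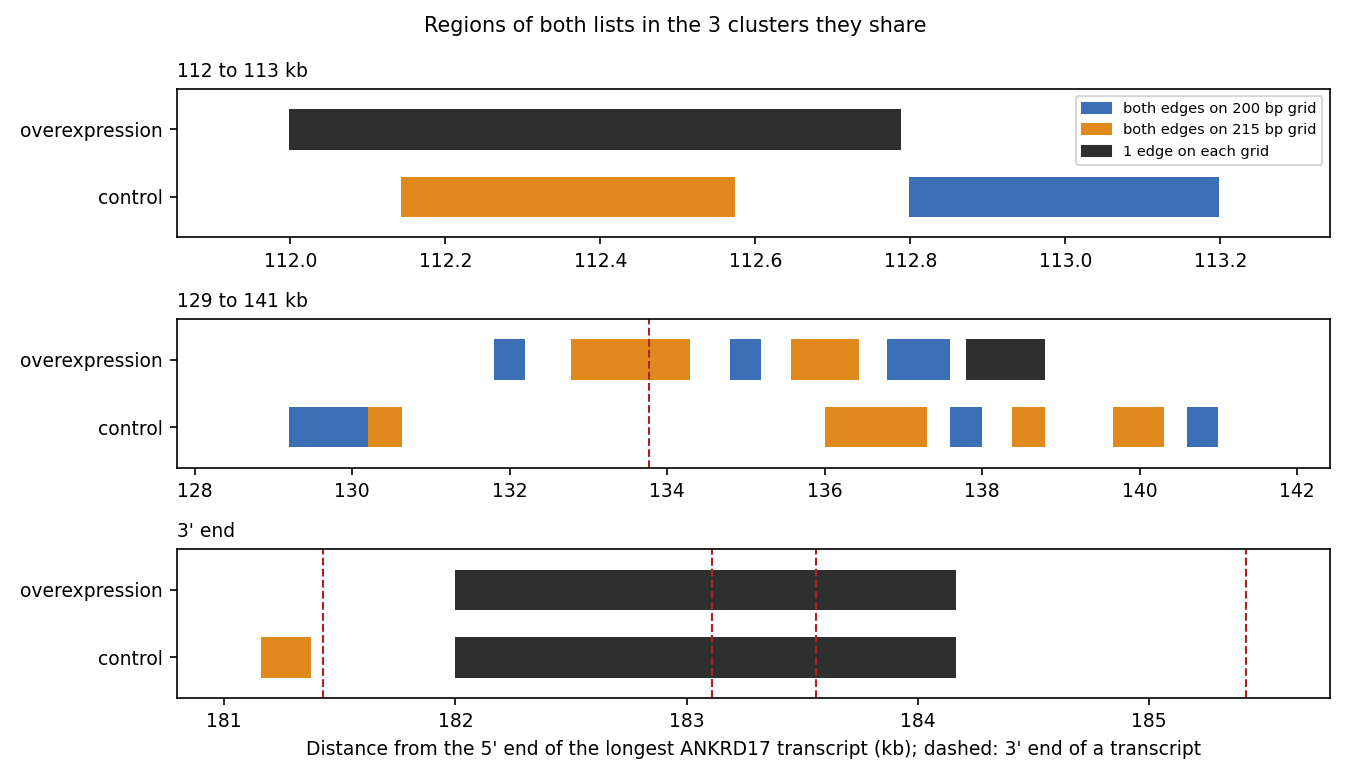
Regions of the overexpression list (upper row of each panel) and the control list (lower row) in the 3 clusters that hold both, by distance in kb from the 5′ end of the longest transcript. The 3′ end panel shows the 2170 bp region with equal ends in both lists. The middle panel shows 6 overexpression regions (4970 bp) and 7 control regions (4595 bp). Of these control regions, 3 lie in the 7005 bp window set by the edges of the overexpression regions.

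The other 6 control regions lay in stretches of the gene without any overexpression region. chr4:73136551-73136765 and chr4:73136801-73137400 lay between the 112 kb group and the dense window. chr4:73100001-73100800, chr4:73100861-73101075 and chr4:73102366-73103200 formed a group around the short transcripts ENST00000513908 and ENST00000560507, and the last of them covered the 3′ end of ENST00000561029 (73102463). chr4:73091831-73092600 stood alone, 18455 bp from the 3′ end of the gene. These 6 lay 8610 to 19195 bp from the nearest overexpression region and summed to 3435 bp, 30.0% of the control width on ANKRD17. Apart from the region at the 5′ end, the remaining 6 control regions without overlap lay within 1795 bp of one.

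Most regions could be given to ANKRD17 alone, as far as the tables go: 0 of the 26 were also assigned to another Ensembl gene. RefSeq places HMGA1P2, a pseudogene of the chromatin protein gene HMGA1, at chr4:73098741-73100465 inside ANKRD17. The control region chr4:73100001-73100800 shared 465 bp with it, 58.1% of its width. Since regions have no strand and related sequences can share reads, this region cannot be given to ANKRD17 RNA with the same certainty as the others.

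Counted together, 5 of 8 overexpression regions (62.5%) overlapped a control region by at least 1 bp, close to the 65% of the 491 overexpression regions of chromosome 4. In the other direction 5 of 18 control regions (27.8%) overlapped an overexpression region, where the share over the 1185 control regions of chromosome 4 was 25.5%. The lists shared 4160 bp of ANKRD17, which is 52.5% of the 7930 bp of overexpression regions and 36.3% of the 11460 bp of control regions. Over chromosome 4 the shared length was 56.4% of the overexpression length and 23.6% of the control length. Requiring an overlap of 50% of both regions left 2 of 8 overexpression regions, against 30.1% on chromosome 4. After regions up to 1000 bp apart were merged, 3 of 3 overexpression regions overlapped a control region, against 69.1%. The length shares rest on the 2170 bp region by which the gene was chosen. Without it 4 of 7 overexpression and 4 of 17 control regions overlapped the other list, and the shared length was 1990 bp, which is 34.5% of the remaining 5760 bp of overexpression regions and 21.4% of the remaining 9290 bp of control regions.

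Equal ends were rarer. On ANKRD17, 2 of 8 overexpression regions shared at least 1 end with an overlapping control region, against 15.9% on chromosome 4. With both ends equal there was 1 of 8, and on chromosome 4 there were 3 of 491 (0.611%). The other two equal regions were 670 bp wide, over ABRAXAS1 and MRPS18C, and 640 bp wide, over LCORL and NCAPG, so the ANKRD17 region was the widest of the 3. Of the 225 genes of chromosome 4 with regions in both lists, 5 (2.22%) held such a region. The equal ends were known when ANKRD17 was chosen, so these shares are a description.

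The edges of all 491 overexpression and all 1185 control regions of chromosome 4 fell on multiples of 200 bp or of 215 bp, so ends can match only to the nearest bin. What the grids stand for is not given in the sources used here. On ANKRD17, 3 overexpression and 3 control regions had 1 edge on each grid (33% and 26.7% of regions on chromosome 4), and the 2170 bp region was among them in both lists, with its lower coordinate on the 215 bp grid and its upper coordinate on the 200 bp grid. Of the other regions, 3 overexpression and 6 control regions lay on the 200 bp grid, and 2 and 9 on the 215 bp grid. Whether the equal ends follow from the grids was not tested.

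By median, the overexpression regions were the wider. The overexpression regions of ANKRD17 were 400 to 2170 bp wide with a median of 830 bp, and the control regions 215 to 2170 bp with a median of 430 bp. On chromosome 4 the medians were 755 and 600 bp. The narrowest overexpression region of the chromosome was 400 bp (0 of 491 under 400 bp), while 23% of control regions were narrower, and 4 of the 18 on ANKRD17 were. These 4 are as narrow as a single 215 bp bin, a width that the overexpression list did not hold anywhere on chromosome 4. With them left out, ANKRD17 had 8 overexpression and 14 control regions.

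**Figure D3:**
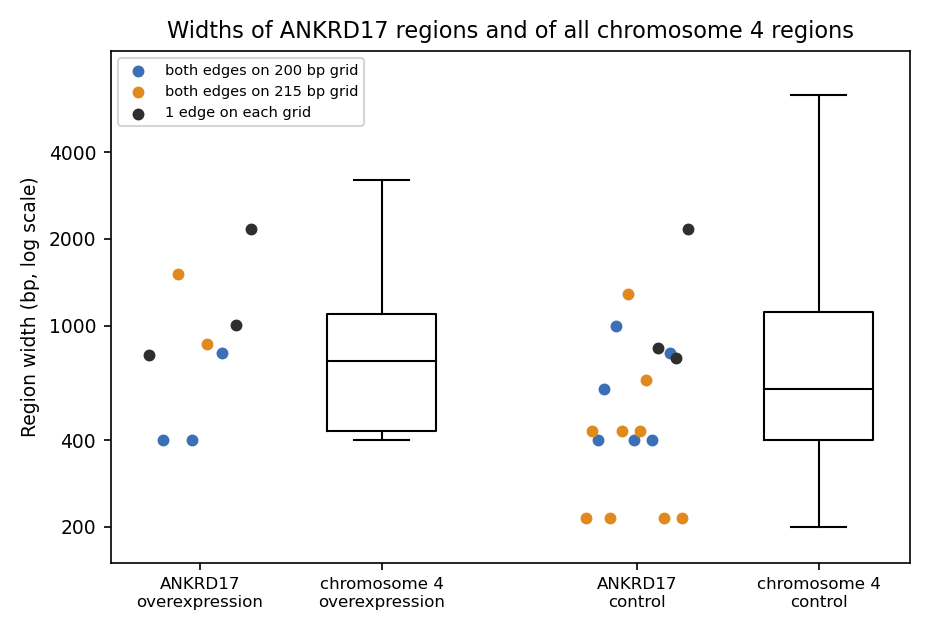
Width in bp on a log axis of every ANKRD17 region (points, ordered 5′ to 3′ within a list and coloured by bin grid) beside all regions of chromosome 4 in the same list (box from the lower to the upper quartile with the median, whiskers to the lowest and highest). The 4 control points at 215 bp lie below the narrowest overexpression region of the chromosome, 400 bp.

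Among the genes of chromosome 4, ANKRD17 stood at or near the top of each list. In the overexpression list its 8 regions were second to the 9 of CRMP1, a cytoskeletal regulator of neurons, among 268 genes with a median of 2. Its summed width of 7930 bp was the highest, against a median of 1425 bp. In the control list its 18 regions were the most among 430 genes, where the median was also 2, and its 11460 bp had rank 3, with NSD2 at the top with 17470 bp. Of the protein-coding genes of the chromosome 27.3% had an overexpression region, 43.1% a control region and 24% both. ANKRD17 is long, 185 kb where the median gene in both lists was 58.7 kb, and 26 of the 225 genes were longer. Long genes offer more positions for a region, but whether length bears on these counts was not tested.

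ANKRD17 had fewer overexpression than control regions, like 58.7% of the 225 genes. Its ratio of overexpression to control was 0.444 by number of regions and 0.692 by summed width, where the medians over the 225 genes were 0.667 and 0.598. The ratio by number lay below the median gene and the ratio by width above it. On ANKRD17 the mean width was 991 bp for overexpression regions and 637 bp for control regions. The medians over the 225 genes leave out genes with regions in only 1 list. All of chromosome 4 had 491 overexpression against 1185 control regions, with 425005 against 1015765 bp. Among the 23 genes with at least 5 overexpression regions, a median of 66.7% of overexpression regions (range 40 to 100) and 50% of control regions (range 18.2 to 100) overlapped the other list. ANKRD17 was below both medians and inside both ranges.

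The protein-coding genes with the most similar pair of counts, by the distance over the log2 counts in the 2 lists, were the histone methyltransferase gene NSD2, with 6 overexpression and 15 control regions (distance 0.491), and CENPE, a motor protein of the kinetochore, with 7 and 13 (0.507). IGFBP7, a secreted binding protein of insulin-like growth factors, and TACC3, a protein of the mitotic spindle, each had 6 overexpression and 11 control regions (0.823). TMEM165, a Golgi membrane protein needed for glycosylation, had 5 and 12 (0.896). None of these 5 genes had a region with both ends equal between the lists. NSD2 and CENPE were the other two genes with at least 20 regions over both lists, and their longest stretches without a region were 42.2% and 27.7% of the longest transcript, against 60.1% in ANKRD17.

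**Figure D4:**
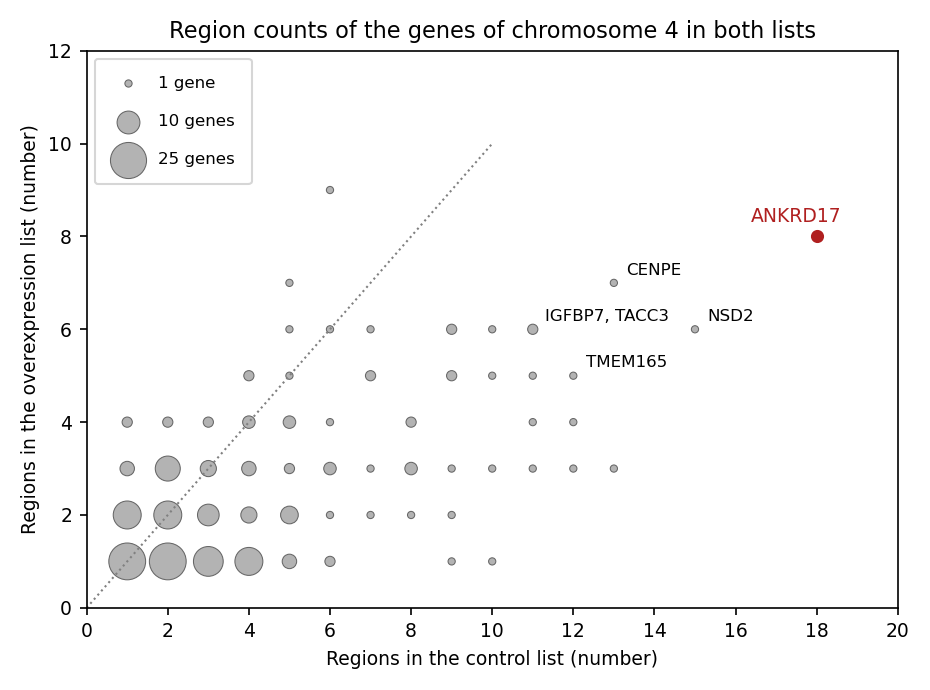
Number of regions in the overexpression list (vertical axis) against the control list (horizontal axis) for the 225 genes of chromosome 4 with regions in both; the area of a point is the number of genes and the dotted line marks equal counts. ANKRD17, with 8 and 18 regions, lies at the far right, and the labelled genes are the 5 nearest by log2 counts.

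Beside ANKRD17, the nearest coding genes had no listed region. On one side these were COX18, an assembly factor of cytochrome oxidase, and ADAMTS3, a procollagen protease. The liver genes ALB and AFP lay on the other. Of these neighbours 0 of 4 had a region in either list. Over all protein-coding genes of the chromosome, 27.3% had an overexpression region and 43.1% a control region. On the divergent side the unnamed transcript ENSG00000250220, which lies within RefSeq's ANKRD17-DT, had 2 overexpression regions, chr4:73261251-73262325 and chr4:73262601-73263000. It had 3 control regions, the one over the far end of the outer sequence shown above, chr4:73262541-73262755 and chr4:73263001-73263400. The overexpression region chr4:73262601-73263000 overlapped the first of the last pair and ended on the base before the second.

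Related genes gave little to compare, because the lists cover few chromosomes. The paralog ANKHD1, on chromosome 5, had no region. Of 5 genes on chromosome 4 whose symbols mark ankyrin repeat proteins, 3 had regions in both lists, against 24% of its protein-coding genes. ANKRD17, chosen for being in both lists, is among the 3. ANKRD37 had 1 overexpression region (1095 bp) and 3 control regions (1830 bp). ANKRD50, an endosomal recycling protein, had 1 (1415 bp) and 3 (4225 bp). ANK2, which anchors membrane proteins to the cytoskeleton, and SOWAHB had none. Of the 21 Hippo and YAP genes chosen, only MOB1B, an activator of the LATS kinases, is on chromosomes 4, 10 or 18. Nearly all listed regions lie on these chromosomes. MOB1B had 0 overexpression regions and 1 control region of 400 bp. The choice was not complete: it held WWC1 but not WWC2. On chromosome 4, WWC2 had 1 overexpression region (1430 bp) and 1 control region (3200 bp). The 10 antiviral sensing genes and the 8 cyclin E and replication genes chosen all lie on other chromosomes and had no region. That holds for the chosen members and does not describe the whole functions. The replication factor gene RFC1, which was not among them, had 3 overexpression and 13 control regions on chromosome 4.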

How the data were processed

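Per the submitters' processing notes, reads were handled with bcl2fastq 2.19.0, Trimmomatic 0.36 and HISAT2 2.1.0 on GRCh38. How regions were called, at which threshold, and how total RNA and replicates entered is not stated there. The authors deposited 1 table for each condition, with 1-based positions, widths and distances in bp, each region repeated per Ensembl transcript, per the file headers. Regions were reduced to 1 entry each and compared with bedtools 2.31.1 at an overlap of at least 1 bp; transcripts came from the tables, and neighbouring genes and promoter sequences from RefSeq GRCh38.p14. Overlap and merging were tested on simulated data. ANKRD17, the gene lists and the comparisons were chosen with earlier results of these data known. Genes named were ANKRD17, 2 coding neighbours per side, the 5 coding genes closest in log2 region counts, ANKHD1 and listed members; others were named after their values were seen. No test was made, as no column holds values per sample. Calculations used Python 3.11.15, pandas 2.3.3 and numpy 2.4.6.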

Additional observations from a re-analysis of the deposited data

How the results depend on the processing

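No paired analysis was possible because the lists hold no value per replicate, and for the same reason no replicate could be left out. Merging regions up to 1000 bp apart left 3 overexpression and 9 control regions on ANKRD17, and all 3 merged overexpression regions overlapped a control one. With regions that have 1 edge on each bin grid only, chosen after seeing the data, there were 3 on ANKRD17 per list. Requiring an overlap of 50% of both regions left 2 of 8 overlapping. Weighting each covered base equally put the median positions at 73.8% (overexpression) and 75.5% (control). Several settings moved no count or length they were applied to by over 1.5 times. These were counting nearest regions, leaving out regions over other Ensembl genes, clipping to the gene and a minimum of 400 bp. Overlap of 50% of the shorter region, ends within 200 bp and the span of all transcripts were also among them. Leaving out the widest region moved the summed widths and the number of overlapping overexpression regions by no more than that. It lowered the length shared between the lists from 4160 to 1990 bp and took out the region with both ends equal. The lists hold no depth, so an absent region is not shown to be unbound RNA.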

Other observations

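Neighbouring ANKRD17 regions of a list often came from different bin grids. Of the 5 neighbouring pairs up to 1000 bp apart in the overexpression list, 4 joined a region on the 200 bp grid and a region on the 215 bp grid, and of the 9 such pairs in the control list 7 did. On chromosome 4 the same held for 99 of 187 overexpression pairs (52.9%) and 216 of 571 control pairs (37.8%). The pairs of 1 gene share their source, and this count was chosen after the values were seen.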
